A study of Mus with 6 samples.

Results

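The genes of glycolysis, the tricarboxylic acid (TCA) cycle and the cellular response to low oxygen were examined in chondrocytes from knee cartilage of 12-week-old C57BL/6J mice. Members were chosen by name, as the enzymes of glycolysis and lactate formation, of the pyruvate dehydrogenase step, of the pentose phosphate pathway and of the TCA cycle, together with the hypoxia-inducible factor (HIF) subunits, their regulators and a few HIF targets. The names expanded to 80 genes, of which 41 had a usable row among the 11659 rows of the count table, and all 41 were tested. The other 39 were not analysed. Of these, 19 had no row here, among them Pkm, Tpi1, Gpi1, Pgam1, Tkt and Epas1, and 20 lay in stretches of the table where gene labels and counts do not stand on the same row, among them Gapdh, Pgk1, Ldha, Suclg1 and Hif1a. Most of the classical hypoxia-induced glycolytic enzymes are therefore not among the values below.

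There were 3 wild-type (WT) samples and 3 samples with conditional loss of Sirt6 (Sirt6 cKO), in which a tamoxifen-inducible Cre under the Col2a1 promoter acts on Sirt6 flox/flox alleles in cells that express Col2a1. The study's methods describe first-passage cultures of primary chondrocytes, and its account of the data can be read as a mouse for each sample. The labels do not say that the samples came from separate animals, so the p-values measure the spread between these samples, which may be technical. The comparison asks how loss of Sirt6, a histone deacetylase of the sirtuin family, alters gene expression in chondrocytes. The controls are labelled wild type, and the RNA-seq methods name no flox alleles, Cre or tamoxifen for them. Differences due to these cannot be told apart from loss of Sirt6 here. Sirt6 itself (ENSMUSG00000034748) was counted 10273, 9963 and 10943 times in WT libraries against 1056, 862 and 660 with Sirt6 cKO, a log2 fold change of -3.69.

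Glycolysis splits glucose into pyruvate in the cytosol, and lactate dehydrogenase turns pyruvate into lactate. Pyruvate that enters mitochondria is oxidized to acetyl-CoA by the pyruvate dehydrogenase complex, which kinases (Pdk) switch off and phosphatases switch on, and acetyl-CoA then feeds the TCA cycle. In normal oxygen, prolyl hydroxylases (Egln) mark the HIF alpha subunit for capture by the Vhl protein and destruction, whereas in low oxygen the alpha subunit pairs with Arnt and switches on its target genes. Cartilage has no blood vessels, and chondrocytes are known for their reliance on glycolysis. Sirt6 is known from other cells as a corepressor of HIF target genes of glycolysis.

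Library totals lay between 25726958 and 30156935 counts. Log2 values of WT replicate 1 correlated across genes at 0.973 with either other WT sample, against 0.990 between WT replicates 2 and 3 and 0.982 to 0.988 among the Sirt6 cKO samples. The chondrocyte label was checked with 19 marker genes, of which 5 were usable. Sox9, Comp, Col11a1 and Ucma were higher in Sirt6 cKO samples, Col9a3 was not past the threshold, and their summed level was 199 to 217 CPM (counts scaled to a common library size by the TMM method) in WT and 393 to 492 CPM in Sirt6 cKO samples. Col2a1 and Acan, the defining markers, were not analysed here. Of 9 fibroblast markers 8 were usable and 5 were higher in Sirt6 cKO samples, with a summed level of 11205 to 11485 CPM in WT and 36197 to 41742 CPM in Sirt6 cKO samples. Col1a1 and Col1a2 carried most of the WT sum, with WT means of 4032 and 6649 CPM. Thy1, Pdpn and Has1 did not pass, at log2 fold changes (Sirt6 cKO over WT) of 0.09, -0.36 and -0.26. Lum had 0, 4 and 4 raw counts in WT. Spp1, the usable gene of 5 hypertrophic chondrocyte markers, was higher in Sirt6 cKO samples, at 1050 to 1090 CPM against 666 to 833 CPM in WT. The leukocyte marker Cd68 stayed at or below 1.73 CPM in every sample, and endothelial, muscle, osteoblast and adipocyte markers had no usable row. These marker sums moved with genotype as the results below did, and their part in those results was not tested. In such bulk samples, fewer cells of a type and less RNA per cell cannot be told apart.

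More of these genes were lower than higher in Sirt6 cKO chondrocytes. Of the 41 genes, 17 were lower (41.5%) and 5 were higher (12.2%) at an adjusted p under 0.05 by the quasi-likelihood test of edgeR, with Benjamini-Hochberg adjustment over 11246 genes, and 19 did not pass. Among all genes tested, 24.3% were lower and 22.5% were higher, which makes 46.8% in either direction. The median log2 fold change (Sirt6 cKO over WT, used throughout) was -0.22 for the 41 genes and 0.00 for all genes tested. A log2 fold change below 0 was found in 28 of the 41 genes and in 5610 of the 11246. The changes were small, since 2 of the 41 genes were lower with a fold change under 0.5 and 0 were higher with a fold change over 2, where 7.15% and 8.72% of all genes passed these limits, 15.9% in either direction. With limma-voom 1 gene, Pfkfb2, was past the higher limit, and with DESeq2 0 were. The values of the 3 Sirt6 cKO samples did not overlap those of the 3 WT samples in 26 of the 41 genes (63.4%), close to the 60.9% of all genes tested. In 17 alternative settings, 12 to 19 of the 41 genes were lower and 3 to 7 were higher. Their median log2 fold change ran from -0.31 without Sirt6 cKO replicate 2 to -0.14 with upper quartile normalization, where that of all genes was 0.08. The smallest counts, 3 higher and 12 lower, came without Sirt6 cKO replicate 1, 12 were lower also without Sirt6 cKO replicate 2, and the largest, 7 and 19, came without WT replicate 1 and with an offset for exon length.

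**Figure D1:**
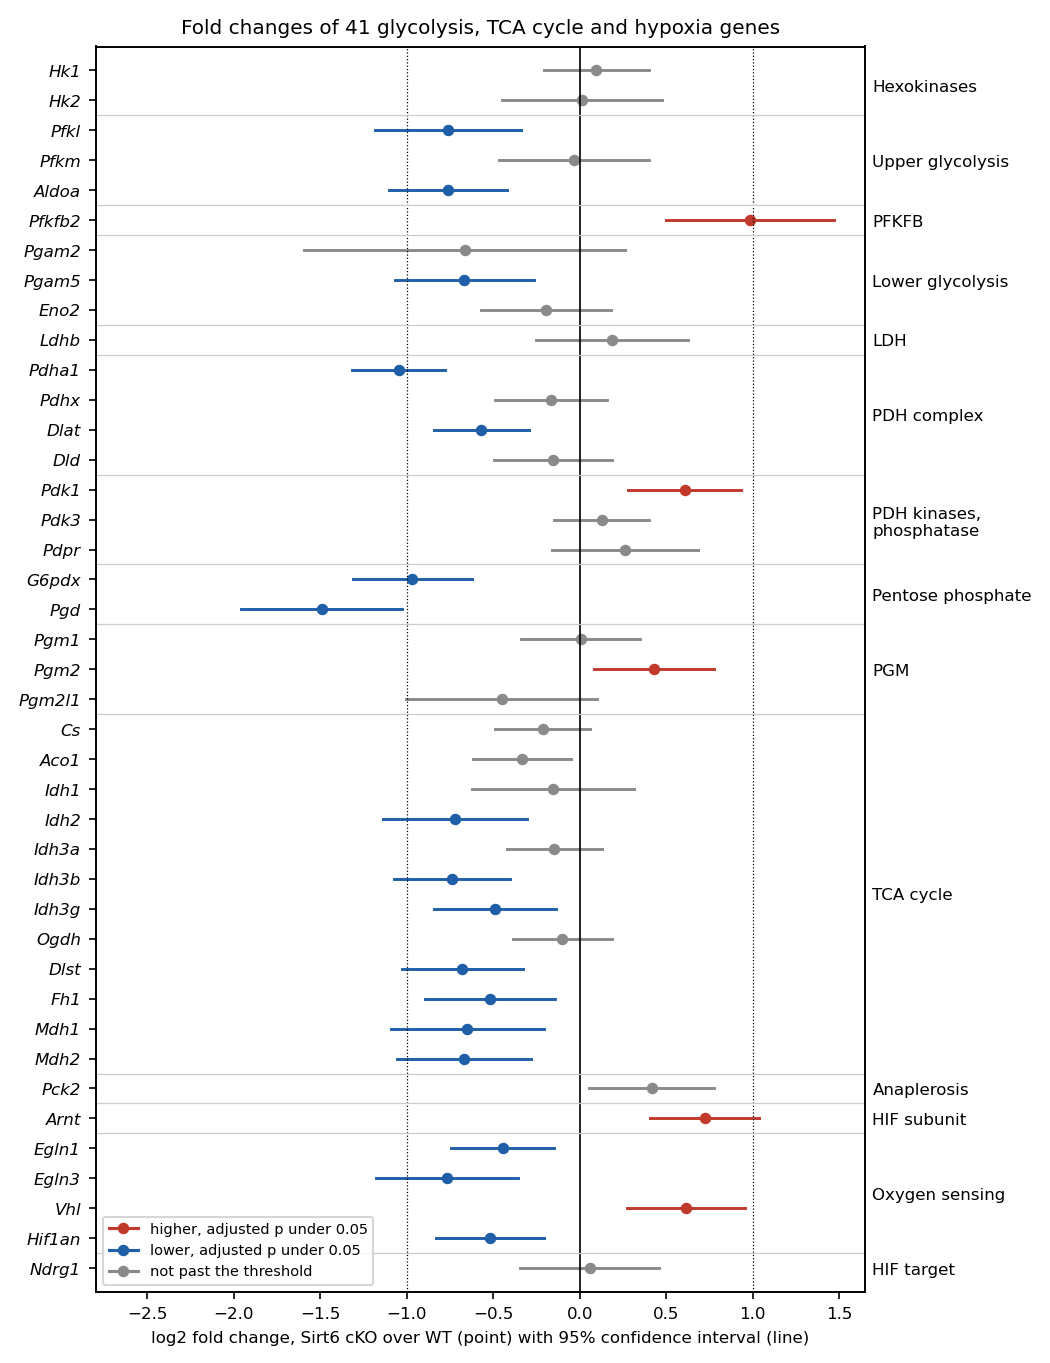
Log2 fold change of each of the 41 genes (point) with its 95% confidence interval (line), grouped by role, from edgeR's quasi-likelihood fit of 3 Sirt6 cKO and 3 WT samples. Blue marks the 17 genes lower and red the 5 genes higher at an adjusted p under 0.05, grey the 19 others, and the dotted lines stand at fold changes of 0.5 and 2. All 12 genes of the TCA cycle role, which includes cytosolic enzymes, lie left of 0.

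At the entry of glycolysis, the hexokinases trap glucose in the cell as glucose 6-phosphate. Only their transcripts were counted, and glucose uptake was not measured. Hk1 was counted 6140, 6001 and 6177 times in WT libraries against 6885, 7248 and 6841 with Sirt6 cKO. After normalization the groups overlapped, and the log2 fold change was 0.10 (95% confidence interval -0.21 to 0.40). Hk2, the inducible form, had a log2 fold change of 0.01 with an interval from -0.45 to 0.48, the 3 Sirt6 cKO samples spreading from 40.7 to 71.8 CPM around WT values of 50.9 to 54.4 CPM.

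Phosphofructokinase and aldolase, the next steps of upper glycolysis, were lower through Pfkl and Aldoa. Aldoa, the most abundant of the 41 genes per kilobase of exon (318 ± 59.6 CPM per kb in WT, SD, n = 3), was counted 25622, 23403 and 23254 times in WT libraries against 15105, 16263 and 14599 with Sirt6 cKO. All Sirt6 cKO values lay below all WT values, and the log2 fold change was -0.76 ± 0.15 (SE, adjusted p = 0.00384, edgeR). Aldoa has processed copies in the genome whose reads could have been counted on it or on them, so its level is uncertain to that extent. Pfkl, the liver-type phosphofructokinase, was at 217, 154 and 153 CPM in WT against 105, 118 and 85.2 CPM in Sirt6 cKO samples, at a log2 fold change of -0.76 ± 0.19 (SE, adjusted p = 0.0103, edgeR). Pfkm, the muscle-type enzyme, did not pass (-0.03, interval -0.47 to 0.40), and its sign depended on the sample left out and on the scaling. Its exons overlap Senp1 on the other strand.

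Pfkfb2 makes fructose 2,6-bisphosphate, the activator of phosphofructokinase. It had the largest increase of the 41 genes. Of the 10 glycolysis and lactate genes, it was the 1 gene called higher and 3 were lower, against 22.5% and 24.3% of all genes, and 2 were higher without WT replicate 1. The 3 lower genes were Pfkl, Aldoa and Pgam5, and Pgam5 is counted here by its name although it acts as a protein phosphatase. Pfkfb2 (ENSMUSG00000026409, chromosome 1 from 130689043 to 130729253) was counted 325, 674 and 682 times in WT libraries against 1075, 1319 and 1067 with Sirt6 cKO. The Sirt6 cKO samples were all above the WT samples, of which replicate 1 was lowest. The log2 fold change was 0.98 ± 0.21 (SE, adjusted p = 0.00587, edgeR), just short of the fold limit of 2, and 0.78 without WT replicate 1. Its level stayed low, at 2.04 ± 0.552 CPM per kb in WT and 4.04 ± 0.449 CPM per kb in Sirt6 cKO samples (SD, n = 3), and its exons overlap Yod1 on the other strand.

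In lower glycolysis, the muscle-type mutase Pgam2 was barely detected, at 12 to 28 raw counts, with a log2 fold change of -0.67 (interval -1.60 to 0.26). Eno2, the neuronal-type enolase, was at -0.20 (interval -0.57 to 0.18). Pgam5, which shares the fold of the mutases but acts as a mitochondrial protein phosphatase, was counted 1342, 1097 and 1235 times in WT libraries against 772, 808 and 915 with Sirt6 cKO. It fell by 0.67 on the log2 scale (adjusted p = 0.0145, edgeR). The call on Pgam5 was lost without Sirt6 cKO replicate 1 (-0.63, adjusted p = 0.0614) or replicate 2 (-0.64, adjusted p = 0.0581). Ldhb, the lactate dehydrogenase subunit of heart muscle, was counted 987, 800 and 886 times in WT libraries against 1239, 1117 and 920 with Sirt6 cKO. Its log2 fold change was 0.18 (interval -0.26 to 0.63), and without WT replicate 1, the highest WT sample, it passed (0.39, adjusted p = 0.0493), as it did with the exon length offset (0.40, adjusted p = 0.0425).

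Of the 7 genes of the pyruvate dehydrogenase step, 2 subunits were lower (28.6%) and 1 kinase was higher (14.3%), not far from the 24.3% and 22.5% of all genes. Pdha1 (ENSMUSG00000031299, chromosome X from 160122209 to 160138413), the catalytic E1 alpha subunit that the kinases phosphorylate, was counted 8943, 11911 and 13109 times in WT libraries against 5784, 5847 and 5685 with Sirt6 cKO. The 3 Sirt6 cKO samples lay close together, at 195 ± 3.06 CPM (SD, n = 3), below all WT samples at 403 ± 30.9 CPM (SD, n = 3). The log2 fold change was -1.05 ± 0.12 (SE, adjusted p = 0.000236, edgeR), the smallest adjusted p of the 41 genes. An intronless copy, Pdha2, could share some of its reads. Dlat, the E2 subunit, was at 135, 135 and 133 CPM in WT against 96.3, 83.4 and 92.5 CPM in Sirt6 cKO samples, a log2 fold change of -0.57 ± 0.12 (SE, adjusted p = 0.00558, edgeR). For Pdha1, WT replicate 1 was the lowest of the WT samples, unlike in most of the lower genes. Dld, the E3 subunit that other dehydrogenases also use, and Pdhx, which binds it to the core, did not pass, with log2 fold changes of -0.15 and -0.17.

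Pdk1, a kinase that inactivates the complex and a known HIF target, was at 29.7, 38.4 and 34.4 CPM in WT against 56.1, 50.6 and 49.7 CPM in Sirt6 cKO samples. The groups did not overlap, and Pdk1 rose by 0.61 ± 0.14 on the log2 scale (SE, adjusted p = 0.00874, edgeR). Pdk3 had a log2 fold change of 0.13 (interval -0.15 to 0.40). Pdpr, the regulatory subunit of the opposing phosphatase, was counted 724, 1350 and 1338 times in WT libraries against 1557, 1475 and 1233 with Sirt6 cKO. Its groups overlapped, its log2 fold change was 0.26 (interval -0.16 to 0.69), and its exons overlap 9430091E24Rik on the other strand.

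**Figure D2:**
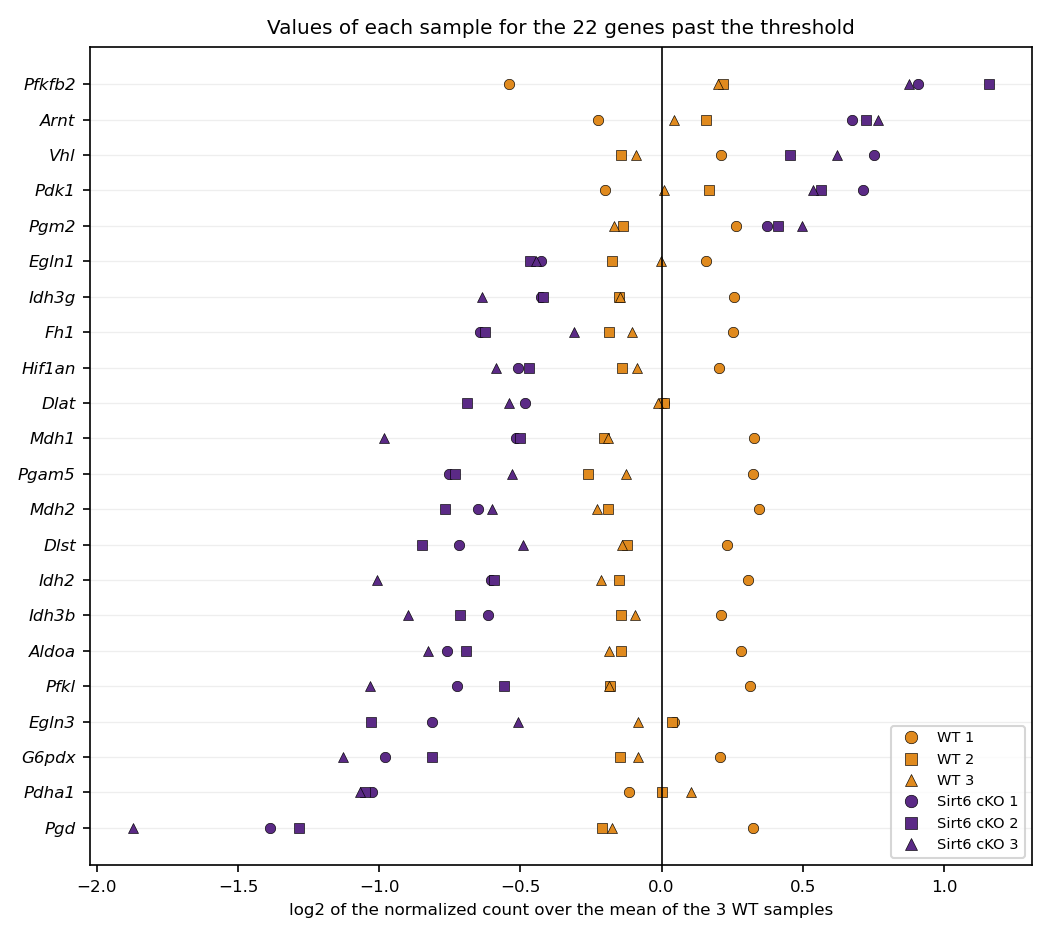
Normalised count of each sample for the 22 genes past the threshold, on the horizontal axis as the log2 of its ratio to the mean of the 3 WT samples. Orange marks WT and purple Sirt6 cKO samples, with circles, squares and triangles for replicates 1, 2 and 3. The Sirt6 cKO samples lie on one side of all WT samples in each gene. WT replicate 1 (orange circle) is the highest WT sample in 15 of the 17 lower genes, as in 15 of the 19 genes not past the threshold, which are not drawn.

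Pgd and G6pdx, the cytosolic enzymes of the oxidative pentose phosphate pathway, which makes NADPH from glucose 6-phosphate, were lower, as were 24.3% of all genes, and they were among the 3 lowest fold changes of the 41 genes. Pgd (ENSMUSG00000028961, chromosome 4 from 149149991 to 149166771), 6-phosphogluconate dehydrogenase, was counted 10410, 8809 and 9256 times in WT libraries against 3864, 4269 and 2797 with Sirt6 cKO. Every Sirt6 cKO sample was far below every WT sample. Pgd fell by 1.49 ± 0.21 on the log2 scale (SE, adjusted p = 0.000657, edgeR), the largest change of the 41 genes, and lay between -1.63 and -1.30 over the alternatives. G6pdx, glucose 6-phosphate dehydrogenase, which opens the pathway, was at 132, 103 and 108 CPM in WT against 58.0, 65.1 and 52.4 CPM in Sirt6 cKO samples. Its log2 fold change was -0.97 ± 0.15 (SE, adjusted p = 0.00124, edgeR). The exons of G6pdx overlap Ikbkg on the other strand, and an intronless copy could share its reads. The rest of the pathway and the hexosamine branch, given by a separate list of 9 genes, of which 6 were tested, had 3 genes that were higher (H6pd, which carries out the oxidative steps in the endoplasmic reticulum, 0.44, Rpe 0.84 and Gnpnat1 0.59), against 22.5% of all genes, and Gfpt1 (0.32), Uap1 (-0.11) and Tigar (-0.31) did not pass.

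The phosphoglucomutases link glucose 6-phosphate with glycogen. Pgm1 was counted 1779, 1606 and 1711 times in WT libraries against 1858, 1897 and 1746 with Sirt6 cKO, overlapping after normalization, with a log2 fold change of 0.01 (interval -0.34 to 0.35). The row of Pgm1 lies near the edge of a stretch where labels and counts match. Pgm2, which acts mainly on pentose phosphates, rose by 0.43 on the log2 scale (adjusted p = 0.0456, edgeR), but the call was lost without any sample other than WT replicate 1, at 0.36 to 0.46 with adjusted p values of 0.103 to 0.151. Pgm2l1, which makes glucose 1,6-bisphosphate, had a fold change of -0.45 on the log2 scale (adjusted p = 0.155, edgeR), and passed without WT replicate 1, at -0.64 (adjusted p = 0.0232), and with the exon length offset, at -0.57 (adjusted p = 0.0453).

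The TCA cycle held the most genes of any role. Of its 12 genes, 7 were lower (58.3%), 0 were higher, and all 12 log2 fold changes were below 0, with a median of -0.50. The 12 genes include the cytosolic enzymes Aco1, Idh1 and Mdh1 and the NADP-dependent Idh2, which stand beside the cycle proper. Of these, Mdh1 and Idh2 were among the 7 lower. Among all genes tested, 24.3% were lower, 22.5% were higher and 5610 of 11246 lay below 0. At an unadjusted p under 0.05, Aco1 was the only further gene, and it was lower too. With DESeq2 and with limma-voom 8 genes were lower and 0 higher. Over the alternatives 4 to 8 of the 12 genes were lower and 0 were higher, with 4 lower without Sirt6 cKO replicate 2. Without WT replicate 1, 8 were lower and the median was -0.36. Without Sirt6 cKO replicate 3, Idh1 lay above 0, at 0.07.

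Following the order of the cycle, citrate synthase, Cs, had the second highest mean of the 41 genes per kilobase of exon, at 207 ± 20.8 CPM per kb in WT (SD, n = 3). Its raw counts ran 15738, 16116 and 16891 across WT libraries against 14859, 15529 and 14484 with Sirt6 cKO. The groups did not overlap after normalization, yet the difference was small, with a log2 fold change of -0.22 (interval -0.49 to 0.06, adjusted p = 0.173, edgeR). Aco1, the cytosolic aconitase that also serves as an iron-responsive RNA-binding protein, did not overlap either and had a fold change of -0.33 on the log2 scale (adjusted p = 0.0529, edgeR). The call on Aco1 depended on the tool, since it passed with DESeq2 (adjusted p = 0.0406) and limma-voom (0.0485), with only rows where labels and counts match (0.0458), without WT replicate 1 (0.0280) and with the exon length offset (0.0299).

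Of the NAD-dependent isocitrate dehydrogenase, Idh3b was lower by a log2 fold change of -0.74 ± 0.15 (SE, adjusted p = 0.00407, edgeR), at 221, 173 and 179 CPM in WT against 125, 116 and 102 CPM in Sirt6 cKO samples. The second regulatory subunit, Idh3g, was also lower, at -0.49 (adjusted p = 0.0297), whereas the catalytic subunit Idh3a was at -0.15 (interval -0.42 to 0.13). The call on Idh3g was lost without Sirt6 cKO replicate 1 (-0.52, adjusted p = 0.0792), replicate 2 (-0.53, 0.0695) or replicate 3 (-0.41, 0.103), and with upper quartile normalization (-0.41, 0.0622). Idh2, the mitochondrial NADP-dependent enzyme, was at 330, 241 and 230 CPM in WT against 175, 177 and 133 CPM in Sirt6 cKO samples, a log2 fold change of -0.72 ± 0.18 (SE, adjusted p = 0.0118, edgeR). Its cytosolic counterpart Idh1 did not pass (-0.15, interval -0.62 to 0.31).

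In the 2-oxoglutarate dehydrogenase complex, the E2 subunit Dlst was lower and the E1 subunit Ogdh was not past the threshold. Dlst was at 346, 271 and 268 CPM in WT against 179, 164 and 210 CPM in Sirt6 cKO samples, at a log2 fold change of -0.68 ± 0.16 (SE, adjusted p = 0.00755, edgeR). Ogdh was at -0.10, with an interval from -0.39 to 0.18. Fh1, fumarase, was lower at -0.52 (adjusted p = 0.0306), and Mdh2 and Mdh1, the mitochondrial and cytosolic malate dehydrogenases, at -0.67 (adjusted p = 0.0121) and -0.65 (adjusted p = 0.0236), all from edgeR. Each of these 3 genes had non-overlapping groups. Calls were lost for Fh1 without WT replicate 3 (-0.56, adjusted p = 0.0546), Sirt6 cKO replicate 1 (-0.46, 0.121) or replicate 2 (-0.47, 0.109), for Mdh1 without Sirt6 cKO replicate 3 (-0.49, 0.0869) and for Mdh2 without Sirt6 cKO replicate 2 (-0.62, 0.0537). Mdh1 overlaps Wdpcp on the other strand. Pck2, mitochondrial phosphoenolpyruvate carboxykinase, which draws oxaloacetate from the cycle, went the other way. Its raw counts ran 5266, 4710 and 4716 across WT libraries against 7297, 6580 and 7223 with Sirt6 cKO, with non-overlapping normalised values. The log2 fold change of 0.42 did not pass (adjusted p = 0.0594, edgeR), and it passed in 8 of the 17 alternatives. These were the replicate number as a block (0.43, adjusted p = 0.0324), leaving out WT replicate 1 (0.59, adjusted p = 0.000952), upper quartile normalization, total counts alone, DESeq2, limma-voom, only rows where labels and counts match and the exon length offset.

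Enzymes and carriers next to the cycle, together with succinate dehydrogenase of the cycle itself, were described by a list of 25 genes. Of these, 11 were tested, 3 were higher (27.3%) and 4 were lower (36.4%), against 22.5% and 24.3% of all genes. The succinate dehydrogenase subunit Sdhb was among the lower genes (-0.63, adjusted p = 0.0434, edgeR). Genes past the fold limit included Gpt2, mitochondrial alanine transaminase (1.95, adjusted p = 0.00035), and Lipt2, which attaches lipoyl groups (-1.57, adjusted p = 0.00239), from edgeR. Gpt2 was counted 1880, 2201 and 2249 times in WT libraries against 7663, 6158 and 12174 with Sirt6 cKO. Lipt2 was counted 346, 305 and 239 times in WT libraries against 137, 104 and 84 with Sirt6 cKO. The groups of both genes did not overlap. Of 14 transporters of glucose, lactate and pyruvate, 6 were tested and 3 of these were higher, against 22.5% of all genes (Slc2a6 0.60, Slc2a10 0.52 and Mpc2 0.61), with the glucose transporter Slc2a1 at -0.22 (adjusted p = 0.258). Of 17 genes of glycogen metabolism and gluconeogenesis, 10 were tested, 3 were higher and 1 was lower, against 22.5% and 24.3% of all genes, and Phkb, a phosphorylase kinase subunit, was past the fold limit at 1.49 (adjusted p = 0.00104), with 604, 1352 and 1397 reads in WT libraries against 3182, 3301 and 3280 with Sirt6 cKO.

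**Figure D3:**
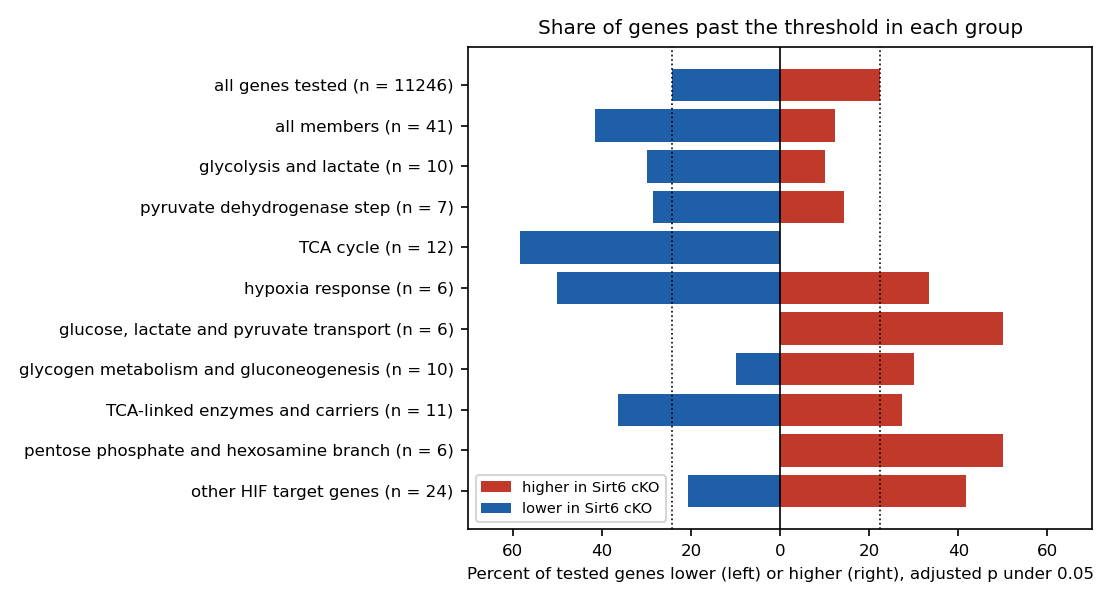
Percent of tested genes lower (blue, left) or higher (red, right) in Sirt6 cKO samples at an adjusted p under 0.05, for all genes tested, the 41 genes, their main roles and the 5 further lists, with the number tested in parentheses. The dotted lines carry down the 24.3% lower and 22.5% higher of all genes tested. The TCA cycle role, which includes cytosolic enzymes, has 58.3% lower and 0 higher, and the other HIF targets have 41.7% higher and 20.8% lower.

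All 4 tested regulators of HIF stability and activity passed, where 46.8% of all genes tested did, and the direction differed between them. Egln1, the main prolyl hydroxylase in normal oxygen, was counted 4035, 3922 and 4534 times in WT libraries against 3264, 3266 and 3264 with Sirt6 cKO. Its log2 fold change was -0.45 ± 0.13 (SE, adjusted p = 0.0222, edgeR). Egln3, a hydroxylase that is itself a HIF target, was at 14.8, 14.8 and 13.6 CPM in WT against 8.18, 7.05 and 10.1 CPM in Sirt6 cKO samples, at a log2 fold change of -0.77 ± 0.18 (SE, adjusted p = 0.0084, edgeR). Hif1an, the asparaginyl hydroxylase that blocks the transactivation domain of HIF alpha, was at 122, 96.2 and 100 CPM in WT against 74.6, 76.7 and 70.7 CPM in Sirt6 cKO samples, at a log2 fold change of -0.52 (adjusted p = 0.0144, edgeR). Vhl, which marks hydroxylated HIF alpha for degradation, was instead higher, at 52.5, 41.1 and 42.7 CPM in WT against 76.5, 62.3 and 69.9 CPM in Sirt6 cKO samples, at a log2 fold change of 0.61 ± 0.15 (SE, adjusted p = 0.0101, edgeR). In each of these genes the genotypes did not overlap, as in 60.9% of all genes tested. With 2 WT or 2 Sirt6 cKO samples some calls were lost. These were Egln1 without WT replicate 3 (-0.44, adjusted p = 0.0730) or without Sirt6 cKO replicate 1, 2 or 3 (-0.46, -0.44 and -0.43, adjusted p of 0.0825, 0.0779 and 0.0559), Hif1an without Sirt6 cKO replicate 1 (-0.53, adjusted p = 0.0608) or 3 (-0.47, 0.0508), and Vhl without Sirt6 cKO replicate 1 (0.54, 0.0546). Egln3 kept its call in all 17 alternatives.

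Arnt, the partner of every HIF alpha subunit, was the only HIF subunit tested. Its raw counts ran 2130, 3402 and 3224 across WT libraries against 4817, 5137 and 5211 with Sirt6 cKO, with WT replicate 1 lowest. The log2 fold change was 0.72 ± 0.14 (SE, adjusted p = 0.00326, edgeR), and Arnt kept its call in all 17 alternatives, between 0.55 and 0.82. Ndrg1, a known HIF target, was counted 2716, 3259 and 2865 times in WT libraries against 2919, 2762 and 4118 with Sirt6 cKO. Its groups overlapped and its log2 fold change was 0.06 (interval -0.34 to 0.46).

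The wider list of 45 other HIF target genes went in both directions. Of the 24 tested, 10 were higher (41.7%) and 5 were lower (20.8%), against 22.5% and 24.3% of all genes, with a median log2 fold change of 0.46, and 6 were higher past a fold change of 2 and 2 lower past 0.5. Over the alternatives 10 to 14 were higher and 3 to 5 lower. Adm, the vasodilator peptide adrenomedullin, showed the largest change, with 886, 1054 and 1047 reads in WT libraries against 5846, 5360 and 9706 with Sirt6 cKO and a log2 fold change of 2.72 ± 0.23 (SE, adjusted p = 5.28e-05, edgeR). Rora, a nuclear receptor, was at 2.43 ± 0.36 (SE, adjusted p = 0.000888, edgeR), with 218, 839 and 674 reads in WT libraries against 2868, 3047 and 3645 with Sirt6 cKO. Ddit4, an inhibitor of mTORC1 signalling, was at 1.70 ± 0.18 (SE, adjusted p = 0.000172, edgeR), with 2417, 2091 and 2271 reads in WT libraries against 9242, 7214 and 7276 with Sirt6 cKO. In these 3 genes each Sirt6 cKO sample was well above each WT sample.

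Angptl4, an inhibitor of lipoprotein lipase, was counted 1747, 1694 and 1689 times in WT libraries against 3722, 2924 and 9818 with Sirt6 cKO, so 1 Sirt6 cKO sample carried much of its log2 fold change of 1.58 ± 0.41 (SE, adjusted p = 0.0126, edgeR), which was 0.87 without Sirt6 cKO replicate 3 and still passed. In the other direction, Fam162a, a mitochondrial protein linked to cell death, was counted 2414, 2268 and 2453 times in WT libraries against 862, 834 and 977 with Sirt6 cKO, a log2 fold change of -1.52 ± 0.15 (SE, adjusted p = 0.000123, edgeR). Ier3, an early-response gene, was counted 1962, 1711 and 1934 times in WT libraries against 695, 621 and 881 with Sirt6 cKO, a log2 fold change of -1.45 ± 0.19 (SE, adjusted p = 0.00049, edgeR). All 3 Sirt6 cKO samples lay below all WT samples in both genes.

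**Figure D4:**
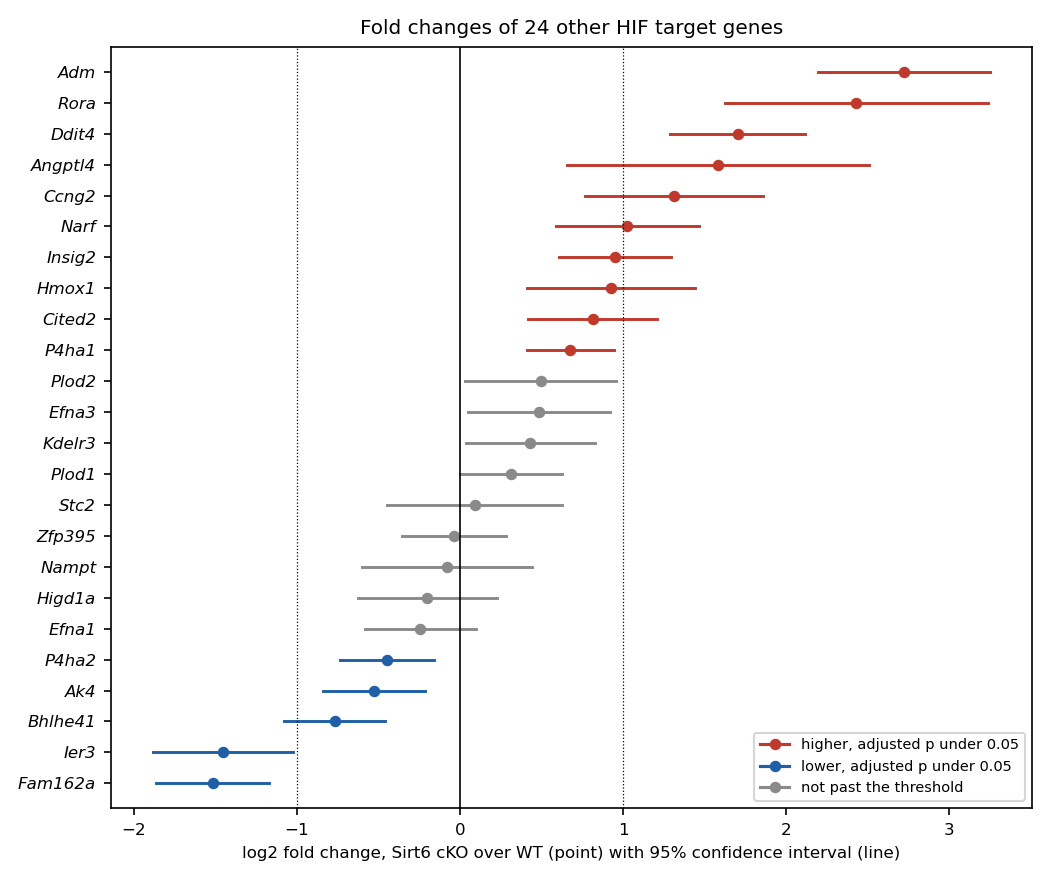
Log2 fold change (point) with 95% confidence interval (line) of the 24 tested genes of the list of other HIF targets, sorted by size, from edgeR's quasi-likelihood fit. Red marks the 10 genes higher and blue the 5 lower at an adjusted p under 0.05, and the dotted lines stand at fold changes of 0.5 and 2. The values run from 2.72 for Adm to -1.52 for Fam162a.

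Within 5 enzyme families with 2 measured forms, the share of each form was compared on the per-kilobase scale with an exact two-sided permutation test over samples, for which 3 samples against 3 cannot give a p below 0.1. Pfkm made up 45.8% ± 1.06 of Pfkl plus Pfkm in WT and 58.0% ± 2.08 in Sirt6 cKO samples (SD, n = 3, exact p = 0.1), a difference of 12.2 percentage points. Per kilobase, Pfkl was the more abundant form in all 3 WT samples and Pfkm in all 3 Sirt6 cKO samples. This order rests on the division by exon length, since in raw counts Pfkl exceeded Pfkm also in Sirt6 cKO replicates 2 (3559 against 3262) and 3 (2525 against 2174), and the exons of Pfkm overlap Senp1. Idh2 went from 72.7% ± 3.20 to 65.1% ± 3.23 of Idh1 plus Idh2 (exact p = 0.1), and Pdk3 from 77.7% ± 2.68 to 71.4% ± 1.60 of Pdk1 plus Pdk3 (exact p = 0.1). Groups did not overlap in these 3 families, which is as far as this test can go, and the adjusted p over the 5 families was 0.167 for each. The share of Egln3 in Egln1 plus Egln3 (11.3% ± 1.29 and 9.18% ± 1.50, SD, n = 3, exact p = 0.3) and that of Hk2 in Hk1 plus Hk2 (25.7% ± 2.34 and 24.2% ± 5.86, SD, n = 3, exact p = 0.7) overlapped between the groups.

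Levels per kilobase of exon ran from 318 CPM per kb for Aldoa to 1.05 CPM per kb for Pgam2 in WT. After Aldoa and Cs came Mdh2 (195 ± 45.7 CPM per kb), Pdha1 (108 ± 8.27), Dlst (107 ± 16.0) and Idh2 (103 ± 21.3, SD, n = 3), whose order is not separated beyond their spread except for Mdh2 above the other 3. Eno2 (2.69 ± 0.310), Pfkfb2 (2.04 ± 0.552) and Pgam2 (1.05 ± 0.235) were the lowest. In Sirt6 cKO samples Aldoa (188 ± 8.72) and Cs (178 ± 5.01 CPM per kb) overlapped in their ranges over samples, which they did not in WT.

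The lower genes had shorter exons than the higher ones, with a median summed exon length of 3080 bases for the 17 lower, 7779 for the 5 higher and 3400 for the 19 others. Across the 41 genes, Spearman's rho between log2 fold change and exon length was 0.24, against 0.19 across 6615 genes in rows where labels and counts match; genes share their libraries and are not independent, so no p is given. WT replicate 1 differed from the other WT samples with length more strongly, at a rho of -0.43 across the 41 genes. It was the highest WT sample in 15 of the 17 lower genes, but also in 15 of the 19 genes that did not pass. Among the 5 higher genes it was the highest in 2 and the lowest in 3. Across the 6615 genes that rho was -0.48. The log2 level of WT replicate 1 lay a median of 0.25 above that of the other WT samples in the 41 genes and 0.083 above it in the 6615. When exon length was added as an offset that differs by sample, 7 of the 41 genes were higher and 19 lower, with a median of -0.22.

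**Figure D5:**
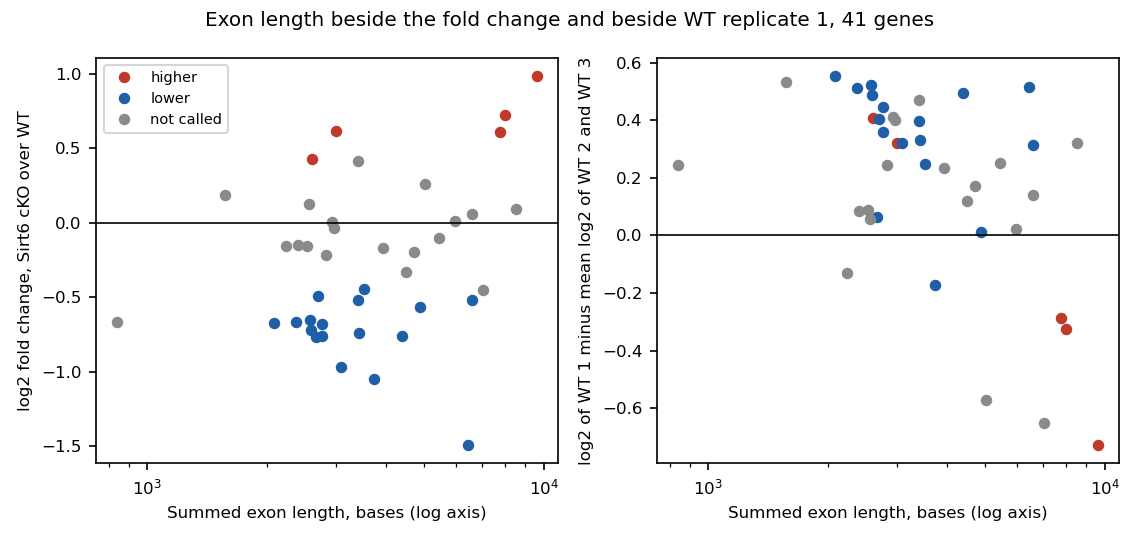
Summed exon length of the 41 genes (horizontal axis, bases, log axis) against the log2 fold change Sirt6 cKO over WT (left) and against the difference of WT replicate 1 from the mean of WT replicates 2 and 3 in log2(CPM + 0.5) (right). Colours mark genes higher (red), lower (blue) or not past the threshold (grey). Long genes tend to lie higher on the left and lower on the right, with a rho of 0.24 and -0.43.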

How the data were processed

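Total RNA of 3 WT and 3 Sirt6 cKO chondrocyte samples had been sequenced, and the authors deposited raw counts per Ensembl gene with exon positions, without normalization. The submitters' notes name cutadapt, HISAT2 2.0.5, StringTie and a human build, which cannot hold for mouse genes; the counter and its strand setting are not given in the sources used here. The methods and the kit names describe libraries that keep the strand, but whether the counting used it is unknown, so overlaps with a gene on the other strand are named. The labels name KAPA and TruSeq kits on a HiSeq sequencer and the methods an NEBNext kit on a NovaSeq. Rows were named by span overlap (at least 0.5 shared) with RefSeq's GRCm38.p6 annotation, giving 10609 names among 11659 rows, and positions are those of the table. Members were used only from the 6621 rows with identifier numbers 1 to 20900 or 25770 to 48200, where exon length follows the count of the same row (rho of 0.25 and 0.295 across genes) and not that of nearby rows.

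The genotypes were compared by edgeR 4.0.16 under R 4.3.3 (TMM, filterByExpr, glmQLFTest, genotype as the only term), with Benjamini-Hochberg adjustment over 11246 genes; 413 were filtered out. CPM are TMM-normalised, and only values per kilobase compare genes. The fit was tested on simulated data. Depth was 25726958 to 30156935 counts. DESeq2 1.42.0, limma-voom (limma 3.58.1), other scalings, filters and thresholds, and leaving out each sample were tried, and an exon length offset was added after the data were seen. Same-numbered samples deviated together from their group means (correlations across genes of 0.262, 0.104 and 0.136), so the number in the labels was also used as a block. Members and lists were chosen with earlier results of these data known. Raw counts were given for members past the fold limit and for the member of each role with the highest mean CPM, without regard to length, other members by CPM or fold change, and up to 6 genes past the limit for each list; H6pd, Rpe, Gnpnat1, the transporters and the genes not past the limit were named after their values were seen. Some genes that fall under this rule are not reported here. Wildcards in the names were read as enzyme families.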

Additional observations from a re-analysis of the deposited data

How the results depend on the processing

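Of the 22 genes past the threshold, 3 of the 5 higher and 10 of the 17 lower kept their call in all 17 alternatives: Pfkfb2, Pdk1 and Arnt, and Pgd, Pdha1, G6pdx, Pfkl, Aldoa, Dlat, Idh2, Idh3b, Dlst and Egln3. The cause of the lost calls was not tested. Leaving out 1 sample, 3 to 7 of the 41 genes were higher and 12 to 19 lower, 0 to 1 were higher and 1 to 3 lower past the fold limit, and 17 to 26 genes of the 5 further lists were higher and 5 to 11 lower (22 and 10 with all samples). At an adjusted p under 0.01, 3 were higher and 8 lower. Past the fold limit, 1 gene was higher with upper quartile normalization, total counts alone, limma-voom and the replicate block, and 1 was lower with upper quartile normalization and total counts alone. These scalings moved the share of higher among all called genes from 48.0% to 55.4% and 51.5%. With the replicate block 23 genes passed, which held the 22 passing without it and Pck2 (0.43), and no other call on the 41 genes changed.

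Signs turned only in genes that did not pass: Hk2 with limma-voom (-0.0298), the block (-0.0291) and the length offset (-0.0895), Hk1 with the offset (-0.14), Pfkm with upper quartile normalization (0.0486), total counts (0.0267) and the offset (0.0246), and Ndrg1 with the offset (-0.0802). When 1 sample was left out, Hk2 ran from -0.25 to 0.17, Pfkm from -0.13 to 0.15, Pgm1 from -0.0648 to 0.16, Idh1 from -0.31 to 0.0721 and Ndrg1 from -0.13 to 0.17. The Hk2 share difference of -1.46 points ran from -4.73 to 0.924 when 1 sample was left out.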
